A study of Mus musculus with 12 samples.

Results

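The 52 genes described here encode the proteins that copy DNA in S phase, from the complex that marks replication origins to the enzymes that supply deoxynucleotides and the factors that pack the new DNA into chromatin. They were listed by function, and each was read from the brightest array probe set that carries its symbol and no other. Of the 52, 50 could be measured in this way, among 22180 genes measured in all. Ccne2 and Rfc4 are annotated only on probe sets that carry other symbols as well, and no value is given for them.

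The cells were primary aortic smooth muscle cells of C57BL/6J mice at passage 3 to 4, grown in DMEM with 10% fetal calf serum. One group of 6 samples received 4.5 g/l glucose (25 mM, a high concentration) and the other group of 6 received 0.3 g/l glucose (1.7 mM, a low concentration). The series text gives 14 days of culture and the sample labels give 1 week, for both groups. Total RNA was labelled with biotin and hybridised to Affymetrix arrays, 1 array per sample, and the deposited values are log2 signals after robust multi-array averaging (RMA). The labels do not say whether replicates came from separate cultures or animals, so p-values reflect how far these samples scatter, and that scatter may be technical.

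In textbook outline, the origin recognition complex with Cdc6 and Cdt1 loads the Mcm2-7 ring onto DNA in G1, and the Cdc7-Dbf4 kinase and cyclin-dependent kinases then turn the ring into an active helicase with Cdc45 and GINS. Primase and polymerase alpha start each strand, polymerases epsilon and delta extend it on the Pcna clamp, and Fen1 and Lig1 join the lagging-strand pieces. Many of these genes are targets of E2F transcription factors, and in cultured smooth muscle cells they are known as markers of proliferation.

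Between arrays of a group, the log2 values of all genes correlated at 0.992 to 0.996 in 4.5 g/l and at 0.984 to 0.996 in 0.3 g/l. Replicate 4 of 0.3 g/l stood apart. On the first principal component, which held 46.2% of the variance, it lay at 17.2, among the 4.5 g/l arrays at 12.5 to 26.2, while the other 5 arrays of 0.3 g/l lay at -30.2 to -24.4. The 10 smooth muscle markers averaged 10.37 to 10.56 on the log2 scale in 4.5 g/l, against 10.03 in replicate 4 of 0.3 g/l and 8.98 to 9.16 in its other 5 arrays, and 8 of the 10 passed the test, all higher in 4.5 g/l. Of the 12 endothelial markers, the brightest over all 12 arrays were Emcn at 10.99 to 11.82, Eng at 10.76 to 11.21 and Cdh5 at 10.03 to 11.36. Cldn5 and Tek were near or below the array medians of 4.92 to 5.05 on some arrays. The mean of the 12 endothelial markers was above those medians. It was 8.00 to 8.12 in replicates 1 to 3 and 7.34 to 7.37 in replicates 4 to 6 of 4.5 g/l, against 7.54 in replicate 4 of 0.3 g/l and 8.02 to 8.05 in its other 5 arrays; 1 of the 12, Emcn, passed the test and was lower in 4.5 g/l. Without 0.3 g/l replicate 4, 3 of the 12 were lower, with Cdh5 at a log2 difference of -0.75 (limma adjusted p = 0.0153) and Tek at -0.66 (0.00308) added. Macrophage, fibroblast, adipocyte and Schwann cell markers had list means of 4.42 to 5.21 on all 12 arrays, and none of those measured (8, 6, 4 and 2) passed the test. Single markers were brighter, with Pdgfra at 7.12 to 7.74 in 4.5 g/l and 6.90 to 7.49 in 0.3 g/l, and Cd68 at 7.01 to 7.73 and 6.24 to 7.76. Pdgfra, a fibroblast marker, was, without 0.3 g/l replicate 4, higher in 4.5 g/l by 0.44 (limma adjusted p = 0.0051). The part of the endothelial signal and of 0.3 g/l replicate 4 in the results was not tested beyond the values given without that array.

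Each gene was compared between 4.5 and 0.3 g/l with limma, and p-values were adjusted over all 22180 genes by the Benjamini-Hochberg method, with a threshold of 0.05. Of the 50 measured replication genes, 19 were higher in 4.5 g/l by 1.15- to 1.62-fold, 2 were lower and 29 did not pass. Among all genes, 7.01% were called higher and 8.52% lower. None of the 50 lay in the lowest 25% of genes by mean. A fit without that part called 3956 genes in place of 3444, a larger share of fewer genes. It gave 22 higher and 3 lower among the 50. The shares of 7.01% and 8.52% include the dim part, and the shares higher and lower among the genes kept were not computed. The median log2 difference of the 50 genes was 0.14, against -0.01 over all genes, and 40 of the 50 differences lay above 0. In 15 genes every 4.5 g/l array exceeded every 0.3 g/l array, which happened in 3.49% of all genes, and in 1 gene, Pold2, every 4.5 g/l array was below every 0.3 g/l array, which happened in 2.9% of all genes. The changes were small. Only 2 of the called genes, Mcm6 and Mcm4, reached a fold of 1.5. In RNA of whole cultures, a larger share of cells in S phase and more of these transcripts per cell cannot be told apart. A different mix of cell types cannot be told apart from these either, and its part was not tested.

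Without 0.3 g/l replicate 4, the counts were 22 higher and 4 lower, against 10.3% and 13.6% of all genes, and all 21 genes called with 12 arrays were among the 26. The mean of the 50 genes was 7.36 to 7.43 in 4.5 g/l, against 7.25 in replicate 4 of 0.3 g/l and 7.17 to 7.27 in its other 5 arrays. The mean of that array lay within the range of its group, but gene by gene it was above the other 5 arrays of 0.3 g/l in 21 of the 50 genes and below them in 13, and it lay within the range of the 4.5 g/l arrays in 15. Of the 19 genes higher in 4.5 g/l, 0.3 g/l replicate 4 was above the other 5 arrays of its group in 11, and it reached the range of the 4.5 g/l arrays in 4.

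**Figure D1:**
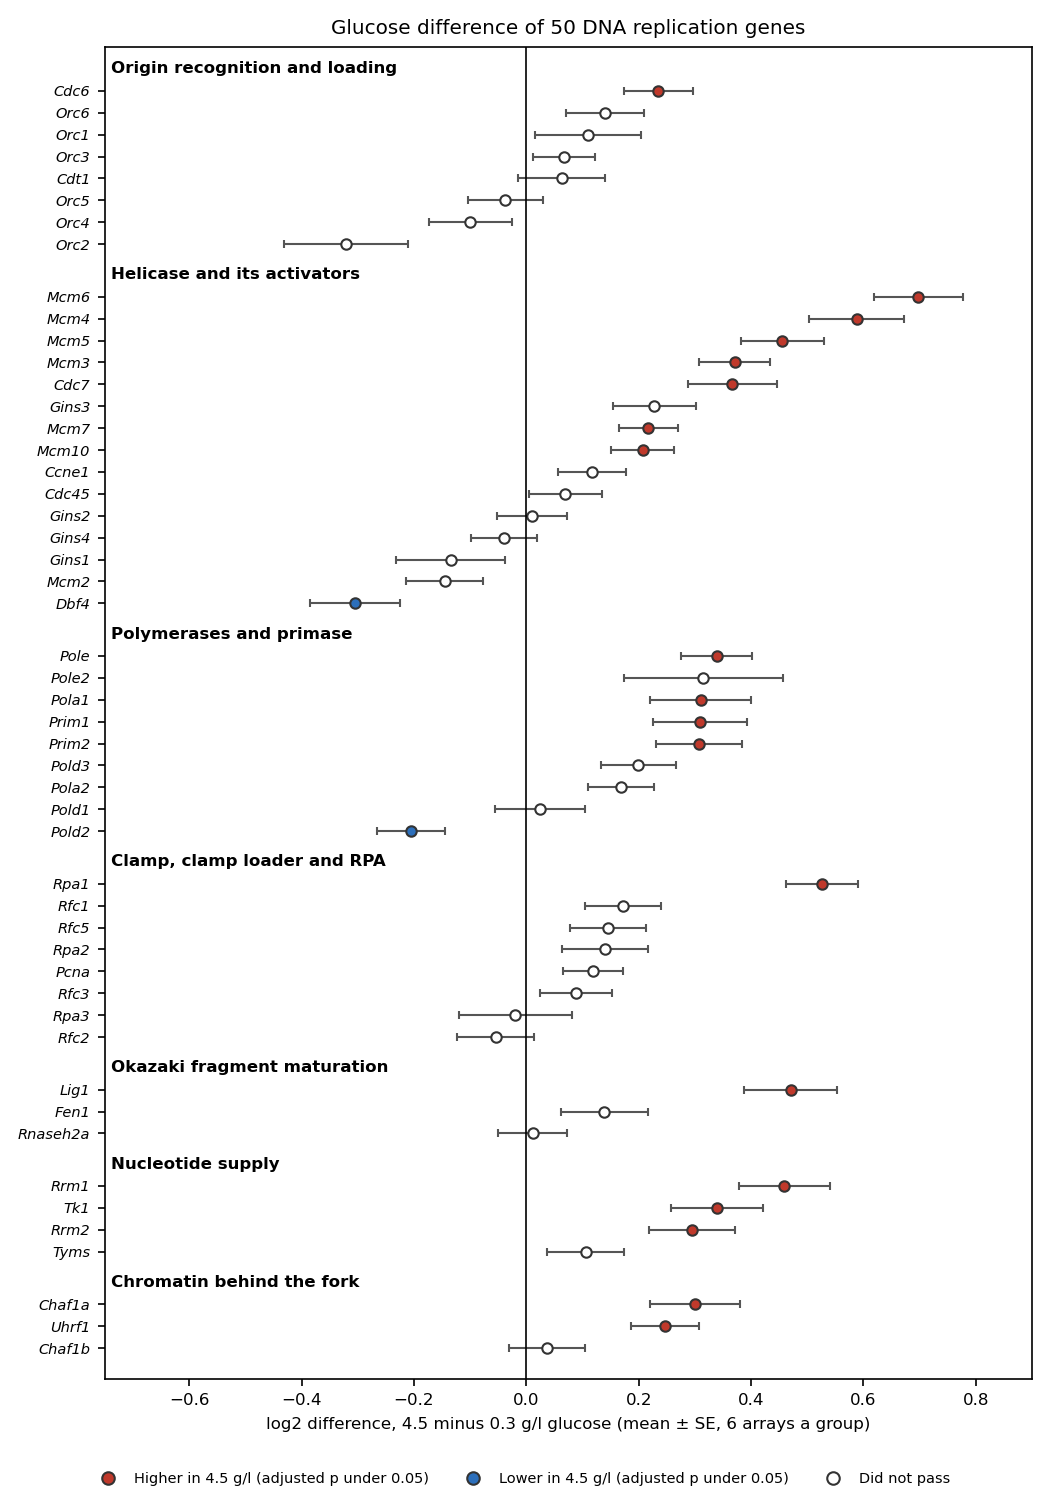
Log2 difference of each of the 50 measured DNA replication genes, 4.5 minus 0.3 g/l glucose (x axis, point and bar: estimate ± SE from limma, 6 arrays a group), ordered within functional groups. Red points are the 19 genes higher in 4.5 g/l and blue points the 2 lower ones, Dbf4 and Pold2, at an adjusted p under 0.05; open points did not pass.

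**Figure D2:**
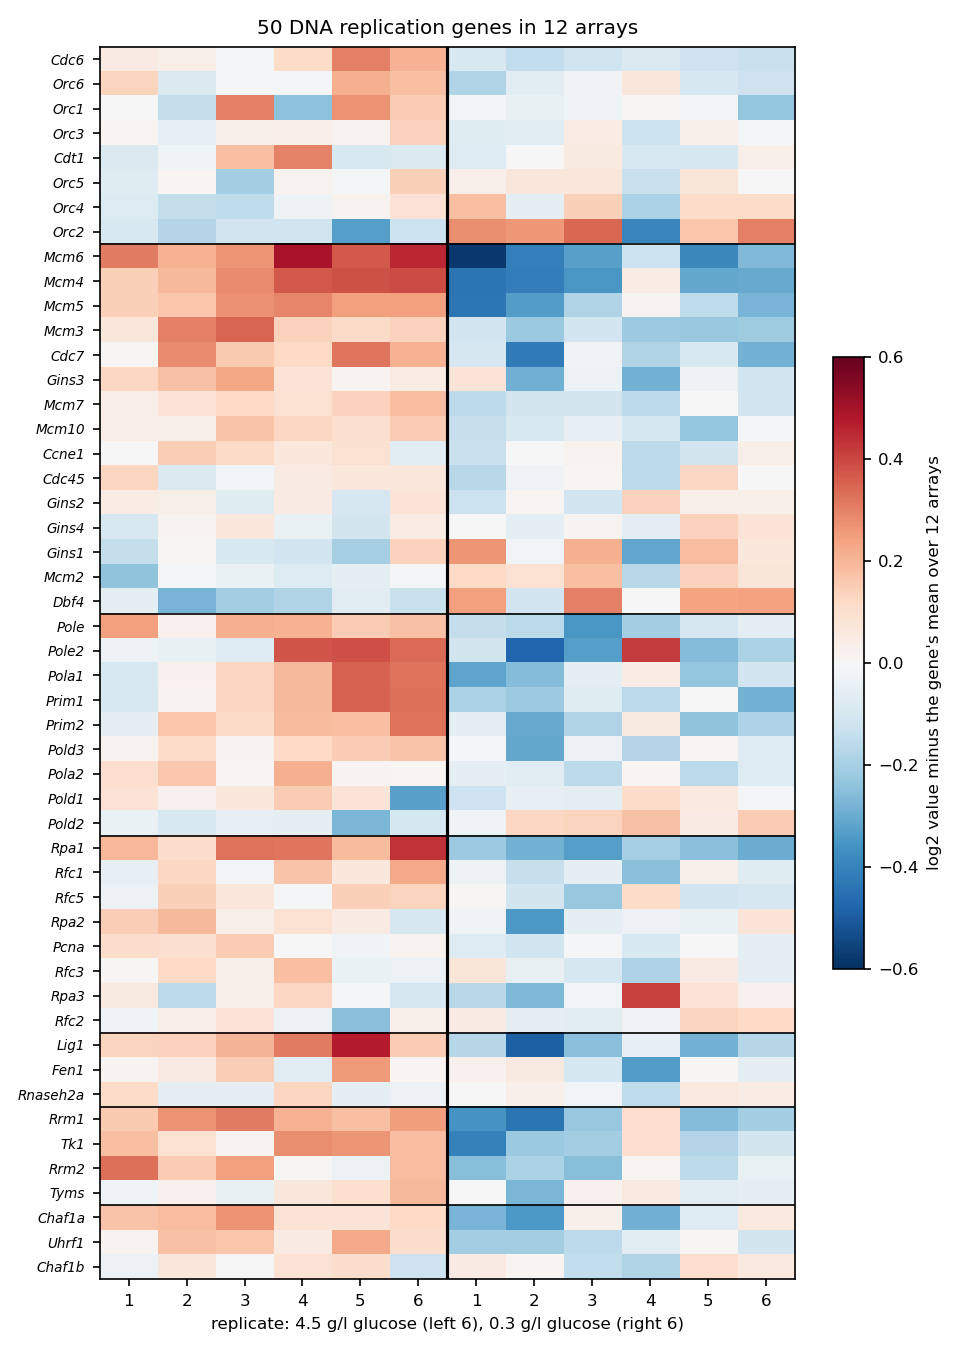
Log2 value of each gene minus its mean over the 12 arrays, with the 6 arrays of 4.5 g/l at the left and the 6 of 0.3 g/l at the right; red is above and blue below the gene's mean. In the helicase block below the first line, Mcm6, Mcm4 and Mcm5 show strong contrast and Mcm2 and Dbf4 the opposite sign; 0.3 g/l replicate 4 departs from its neighbours in Pole2, Rpa3, Mcm4 and Orc2.

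Of the 8 genes of origin recognition and loading, Cdc6 rose and 7 did not pass, with a median log2 difference of 0.06. Cdc6, the ATPase that recruits the helicase to the origin, had log2 values of 6.29 to 6.60 (median 6.37) in 4.5 g/l, against 6.14 to 6.21 (median 6.17) in 0.3 g/l. The groups did not overlap, and the difference was 0.23 ± 0.06 (log2, SE, n = 6 each; limma adjusted p = 0.0191). Cdt1, its partner in loading, had values of 6.68 to 7.07 (median 6.71) in 4.5 g/l and 6.67 to 6.82 (median 6.73) in 0.3 g/l. Its groups overlapped almost completely, with a difference of 0.06 ± 0.08 (limma adjusted p = 0.679).

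The subunits of the origin recognition complex, Orc1 to Orc6, had differences of -0.32 to 0.14, none of which passed with 12 arrays. Orc2, one of its core subunits, showed the largest of these. It had values of 7.33 to 7.56 (median 7.53) in 4.5 g/l, against 7.27 to 8.00 (median 7.93) in 0.3 g/l. A single array carried the overlap: 0.3 g/l replicate 4 lay at 7.27, below every 4.5 g/l array, while the other 5 arrays of 0.3 g/l lay at 7.83 to 8.00. With it the difference was -0.32 ± 0.11 (limma adjusted p = 0.0656), and without it Orc2 was lower in 4.5 g/l by a log2 difference of -0.43 (limma adjusted p = 0.000114), with no overlap between the groups.

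Of the 15 measured genes of the helicase and its activators, 7 rose (Mcm3, Mcm4, Mcm5, Mcm6, Mcm7, Mcm10 and Cdc7), Dbf4 fell and 7 did not pass, with a median log2 difference of 0.21. All 7 genes that rose had groups that did not overlap. Mcm2 to Mcm7 form the heterohexameric ring that unwinds the DNA ahead of the fork, and 5 of the 6 subunits rose; Mcm2 did not.

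Mcm6 had log2 values of 8.53 to 8.82 (median 8.66) in 4.5 g/l, against 7.75 to 8.19 (median 7.97) in 0.3 g/l. Its lowest 4.5 g/l array was above its highest 0.3 g/l array, which was replicate 4, and the difference of 0.70 ± 0.08 was the largest of the 50 genes (1.62-fold; limma adjusted p = 0.00013). Mcm4 had values of 8.50 to 8.74 (median 8.68) in 4.5 g/l, against 7.91 to 8.40 (median 8.02) in 0.3 g/l, a difference of 0.59 ± 0.08 (limma adjusted p = 0.000571). Here 0.3 g/l replicate 4 lay alone at 8.40, between the other arrays of its group, which ended at 8.05, and the 4.5 g/l arrays. Mcm5 had values of 7.50 to 7.64 (median 7.60) in 4.5 g/l, against 6.92 to 7.37 (median 7.12) in 0.3 g/l, a difference of 0.46 ± 0.07 (limma adjusted p = 0.00118). For Mcm3 and Mcm7 the differences were smaller, at 0.37 ± 0.06 and 0.22 ± 0.05 (limma adjusted p = 0.00149 and 0.0122).

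Mcm2, the subunit that also binds histones, lay the other way. It had values of 8.20 to 8.43 (median 8.40) in 4.5 g/l, against 8.28 to 8.62 (median 8.55) in 0.3 g/l, a difference of -0.15 ± 0.07 that did not pass (limma adjusted p = 0.19). Once more replicate 4 was the lowest 0.3 g/l array, at 8.28, with the other 5 at 8.51 to 8.62. Without it the groups did not overlap, and Mcm2 was lower in 4.5 g/l, with a log2 difference of -0.19 (limma adjusted p = 0.0212). Read from 1 probe set each, the ring subunit genes thus had log2 differences that were unequal in size, and opposite in sign for Mcm2. The within-array log2 difference of Mcm6 over Mcm2 was larger by 0.84 in 4.5 g/l than in 0.3 g/l, that of Mcm3 over Mcm2 by 0.52 and that of Mcm7 over Mcm2 by 0.36, with no overlap between groups in these 3 pairs. For Mcm4 and Mcm5 over Mcm2 the shifts were 0.73 and 0.60, and the groups overlapped through 0.3 g/l replicate 4 alone. That array lay at 0.118 for Mcm4 and -0.911 for Mcm5, against lowest 4.5 g/l values of 0.114 and -0.914. These pairs were chosen after the values were seen, and no test was made of them.

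**Figure D3:**
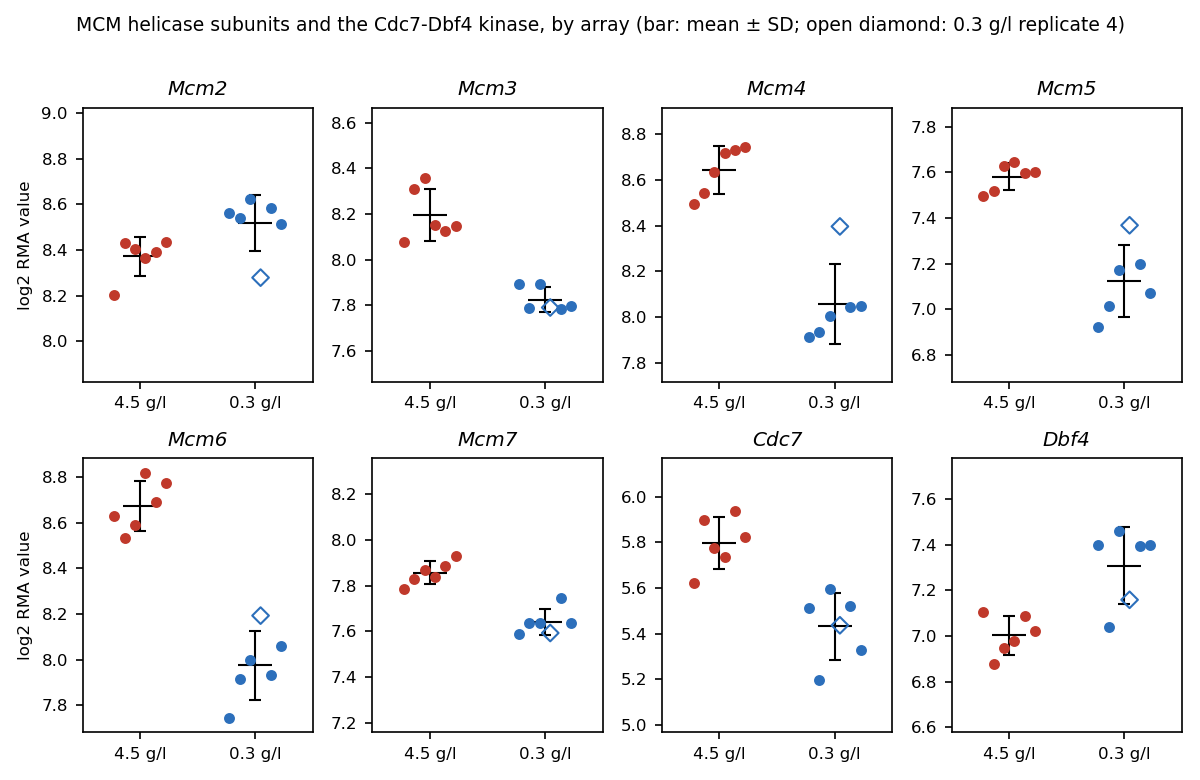
Log2 RMA value (y axis, all panels spanning the same range of log2 units) of the Mcm2-7 subunits and of Cdc7 and Dbf4 in each array of 4.5 g/l (left, red) and 0.3 g/l glucose (right, blue); bars are mean ± SD (n = 6 each) and the open diamond is 0.3 g/l replicate 4. Mcm3 to Mcm7 and Cdc7 show no overlap between groups, with 4.5 g/l higher, while Mcm2 and Dbf4 lie lower in 4.5 g/l and overlap.

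The kinase that fires loaded origins showed opposite changes in its subunits. Cdc7, the catalytic subunit, had a difference of 0.37 ± 0.08 (limma adjusted p = 0.00644), with every 4.5 g/l array above every 0.3 g/l array. Dbf4, the regulatory subunit that activates it, had values of 6.88 to 7.10 (median 7.00) in 4.5 g/l, against 7.04 to 7.46 (median 7.40) in 0.3 g/l. It fell, with a log2 difference of -0.30 ± 0.08 (1.24-fold lower; limma adjusted p = 0.0189), and its groups overlapped. The within-array difference of Cdc7 over Dbf4 was larger by 0.67 in 4.5 g/l, with no overlap; this pair too was chosen after the values were seen.

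Ccne1, the cyclin partner of Cdk2 at S phase entry, had values of 7.18 to 7.39 (median 7.32) in 4.5 g/l and 7.09 to 7.28 (median 7.19) in 0.3 g/l. The groups overlapped, and the difference of 0.12 ± 0.06 did not pass (limma adjusted p = 0.236). Mcm10, a scaffold that helps to activate the helicase, rose by 0.21 ± 0.06 (limma adjusted p = 0.0222); its adjusted p was 0.0518 to 0.0578 when replicate 1 or replicate 5 of 0.3 g/l was left out. Cdc45 and the GINS subunits Gins1 to Gins4, which complete the active helicase, did not pass, and neither did the remaining genes of this group, with differences of -0.15 to 0.23. The upper end was Gins3 (limma adjusted p = 0.0527, and 0.0324 without 0.3 g/l replicate 1).

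The promoters of these genes are shown because E2F factors are known to bind upstream of many of them and several of the genes moved together. In RefSeq promoter windows of the GRCm38.p6 build, which run from 250 bases before to 50 bases after each annotated start, 44 of the 52 genes had an entry. The letters TTTCCCGC, TTTCGCGC, TTTGCCGC or TTTGGCGC, the E2F motif searched on both strands, were found in 16 of the 44 (36.4%), against 704 of 27025 genes with a window (2.6%). Matches of the motif can overlap each other. Of the genes higher in 4.5 g/l 8 of 16 held a match, of the lower ones 0 of 2, and of those that did not pass 8 of 25. The 6 sequences below run 5′ to 3′ on the gene's strand from base -200 to base -21 relative to the start, with E2F matches in capitals: Mcm6 (chr1:128359726-128359905, minus strand) with 3 matches, the first pair overlapping, Mcm5 (chr8:75109309-75109488, plus strand) with 2 overlapping matches, Mcm7 (chr5:138171904-138172083, minus strand), Cdc6 (chr11:98907951-98908130, plus strand) and Pola1 (chrX:93632176-93632355, minus strand) with 1 each, and Mcm2 (chr6:88898801-88898980, minus strand) with 0.
Mcm6: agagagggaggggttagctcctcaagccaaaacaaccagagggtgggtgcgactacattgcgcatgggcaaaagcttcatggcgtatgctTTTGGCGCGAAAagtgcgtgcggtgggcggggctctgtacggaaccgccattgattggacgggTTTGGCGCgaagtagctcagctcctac
Mcm5: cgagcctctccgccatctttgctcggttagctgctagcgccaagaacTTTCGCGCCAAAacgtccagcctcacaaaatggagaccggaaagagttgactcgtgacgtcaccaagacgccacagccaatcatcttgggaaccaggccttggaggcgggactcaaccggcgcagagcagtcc
Mcm7: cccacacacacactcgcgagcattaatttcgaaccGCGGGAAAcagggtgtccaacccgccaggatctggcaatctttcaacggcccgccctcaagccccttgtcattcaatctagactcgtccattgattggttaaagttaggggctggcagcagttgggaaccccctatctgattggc
Cdc6: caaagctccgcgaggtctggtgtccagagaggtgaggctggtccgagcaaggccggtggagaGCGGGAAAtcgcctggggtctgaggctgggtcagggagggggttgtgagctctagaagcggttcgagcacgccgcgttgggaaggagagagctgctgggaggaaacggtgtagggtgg
Pola1: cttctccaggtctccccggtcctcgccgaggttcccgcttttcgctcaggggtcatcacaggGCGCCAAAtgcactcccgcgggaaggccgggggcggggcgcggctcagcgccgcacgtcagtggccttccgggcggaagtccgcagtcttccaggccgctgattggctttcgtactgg
Mcm2: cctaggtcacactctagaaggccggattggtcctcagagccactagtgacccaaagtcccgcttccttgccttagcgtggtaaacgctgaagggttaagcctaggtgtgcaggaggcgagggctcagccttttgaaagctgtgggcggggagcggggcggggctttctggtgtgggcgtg

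A match describes the letters of these windows and no binding was measured here. The 16 genes with a match were Orc1, Orc3, Cdc6, Cdt1, Mcm3, Mcm5, Mcm6, Mcm7, Gins3, Pola1, Pold1, Pold3, Pole2, Rfc3, Lig1 and Uhrf1. Genes with and without a called difference held the motif, as with Cdc6, which rose, and Cdt1, which did not pass. The printed sequences are examples, and those of the genes that rose all hold a match. Gins3 and Orc3, which did not pass, also held a match in the printed stretch, each with its first base at -41. Rpa1 and Rrm1, which rose, held none in their windows. The CCAAT box (letters CCAAT, both strands) was in 26 of the 44 windows (59.1%), against 41.1% of all genes with a window. The CHR element of cell cycle genes (TTTGAA or TTCGAA, both strands) was in 9 of 44 (20.5%), against 21.7%.

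Among the polymerases and primase, 4 of 9 genes rose (Pole, Prim1, Prim2 and Pola1), Pold2 fell and 4 did not pass, with a median log2 difference of 0.31. Pole, the catalytic subunit of the leading-strand polymerase epsilon, had log2 values of 6.91 to 7.13 (median 7.07) in 4.5 g/l, against 6.54 to 6.82 (median 6.73) in 0.3 g/l. The groups did not overlap, and the difference was 0.34 ± 0.06 (limma adjusted p = 0.00281). A second probe set of Pole was dim, at means of 4.23 and 4.22 in 4.5 and 0.3 g/l, and showed a difference of 0.02.

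The 3 called subunits of the polymerase alpha-primase complex, which lays down the RNA-DNA primer, each had a difference of 0.31. The subunit that was not called, Pola2, had one of 0.17. Prim2, the large primase subunit, had values of 8.72 to 9.10 (median 8.95) in 4.5 g/l, against 8.47 to 8.83 (median 8.59) in 0.3 g/l, a difference of 0.31 ± 0.08 (limma adjusted p = 0.0149). Prim1, the catalytic primase subunit, had values of 6.95 to 7.40 (median 7.20) in 4.5 g/l, against 6.76 to 7.04 (median 6.87) in 0.3 g/l, a difference of 0.31 ± 0.08 (limma adjusted p = 0.023). Both overlapped between groups. Pola1, the polymerase subunit, had a difference of 0.31 ± 0.09 (limma adjusted p = 0.0303). The calls of Prim1 and Pola1 were lost without any 1 of several arrays, while the differences stayed at 0.27 to 0.32. The adjusted p of Prim1 was 0.0505 to 0.0569 without any 1 of replicates 1, 2 and 6 of 0.3 g/l and 5 and 6 of 4.5 g/l, and that of Pola1 was 0.0518 to 0.0736 without any 1 of replicates 1, 2, 5 and 6 of 0.3 g/l and 4, 5 and 6 of 4.5 g/l.

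The fourth subunit, Pola2, had a difference of 0.17 ± 0.06, which missed the threshold over 12 arrays (limma adjusted p = 0.0694) and met it without 0.3 g/l replicate 4 (0.0268). Pole2, the second subunit of polymerase epsilon, had values of 6.57 to 7.03 (median 6.80) in 4.5 g/l, against 6.17 to 7.06 (median 6.42) in 0.3 g/l. The highest of all 12 arrays was 0.3 g/l replicate 4, at 7.06, with the other 5 arrays of its group at 6.17 to 6.53. The difference was 0.32 ± 0.14 with it (limma adjusted p = 0.163) and 0.43 without it (limma adjusted p = 0.0106). Within 4.5 g/l, Pole2 was also uneven, at 6.57 to 6.61 in replicates 1 to 3 and 6.98 to 7.03 in replicates 4 to 6. Other genes split there too, in either direction, as in these examples picked after their values were seen. Prim1 lay at 6.95 to 7.17 and 7.24 to 7.40, and Mcm6 at 8.53 to 8.63 and 8.69 to 8.82. Pcna lay at 9.95 to 10.01 and 9.83 to 9.87, and Chaf1a at 6.22 to 6.32 and 6.13 to 6.17. Those are the same replicates that differed in the endothelial markers, whose part in these values was not tested.

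In polymerase delta, the lagging-strand enzyme, 1 of the 3 listed subunits passed, and it was lower. Pold2, an accessory subunit, had values of 7.39 to 7.63 (median 7.59) in 4.5 g/l, against 7.65 to 7.84 (median 7.79) in 0.3 g/l. Every 4.5 g/l array was below every 0.3 g/l array, and Pold2 fell, with a log2 difference of -0.21 ± 0.06 (limma adjusted p = 0.0331). This call too was lost without any 1 of several arrays. The limma adjusted p was 0.0506 to 0.0737 without any 1 of replicates 2, 3, 5 and 6 of 0.3 g/l and 2, 5 and 6 of 4.5 g/l. The difference stayed at -0.22 to -0.17. Pold1, the catalytic subunit, had a difference of 0.02 ± 0.08 (limma adjusted p = 0.896), and Pold3, which joins the complex to Pcna, one of 0.20 ± 0.07 that did not pass (limma adjusted p = 0.0564) although every 4.5 g/l array was above every 0.3 g/l array. The within-array difference of Pole over Pold2 was larger by 0.54 in 4.5 g/l, with no overlap between groups, for a pair chosen after the values were seen.

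Of the clamp, the clamp loader and the single-strand binding protein RPA, 1 of 8 measured genes rose, Rpa1, with a median log2 difference of 0.13. Rpa1, the large DNA-binding subunit of RPA, had values of 7.96 to 8.29 (median 8.12) in 4.5 g/l, against 7.53 to 7.66 (median 7.59) in 0.3 g/l. The groups were clearly separated, 0.3 g/l replicate 4 included, and the difference was 0.53 ± 0.06 (1.44-fold; limma adjusted p = 0.000202). A second, dim probe set of Rpa1 showed a difference of 0.27 that did not pass over all probe sets (limma adjusted p = 0.114). The other RPA subunits, Rpa2 and Rpa3, had differences of 0.14 and -0.02 that did not pass.

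Pcna, the sliding clamp and a common immunostaining marker of proliferating smooth muscle, had values of 9.83 to 10.01 (median 9.91) in 4.5 g/l and 9.73 to 9.85 (median 9.79) in 0.3 g/l. The groups overlapped slightly, and the difference of 0.12 ± 0.05 did not pass (limma adjusted p = 0.169). The clamp loader subunits Rfc1, Rfc2, Rfc3 and Rfc5 had differences of -0.05 to 0.17, and none passed with 12 arrays. Of them Rfc5 passed without 0.3 g/l replicate 4, with a log2 difference of 0.18 (limma adjusted p = 0.0419), against 0.15 with it (0.176).

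In Okazaki fragment maturation, 1 of 3 genes rose. Lig1, the ligase that seals lagging-strand nicks, had values of 6.80 to 7.14 (median 6.84) in 4.5 g/l, against 6.18 to 6.61 (median 6.45) in 0.3 g/l. The groups did not overlap, and the difference was 0.47 ± 0.08 (1.39-fold; limma adjusted p = 0.00197). Fen1, the flap nuclease, and Rnaseh2a, the catalytic subunit of ribonuclease H2, had differences of 0.14 and 0.01 that did not pass.

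Nucleotide supply had the highest median difference of the 7 groups, 0.32, and 3 of its 4 genes rose. Rrm1, the large subunit of ribonucleotide reductase, had values of 9.53 to 9.68 (median 9.60) in 4.5 g/l, against 8.93 to 9.47 (median 9.13) in 0.3 g/l, a difference of 0.46 ± 0.08 (limma adjusted p = 0.00197). Its groups did not overlap, with 0.3 g/l replicate 4 nearest to the 4.5 g/l arrays. Tk1, the S phase thymidine kinase, had values of 7.81 to 8.07 (median 7.97) in 4.5 g/l, against 7.38 to 7.89 (median 7.60) in 0.3 g/l, a difference of 0.34 ± 0.08 (limma adjusted p = 0.0119). The overlap came from 0.3 g/l replicate 4 alone. Rrm2, the S phase small subunit of the reductase, had values of 7.84 to 8.20 (median 8.04) in 4.5 g/l, against 7.62 to 7.89 (median 7.70) in 0.3 g/l, a difference of 0.30 ± 0.08 (limma adjusted p = 0.0183) with overlapping groups. A second, dim probe set of Rrm2, at means of 2.68 and 2.77 in 4.5 and 0.3 g/l, showed a difference of -0.08. Tyms, which makes thymidylate, had a difference of 0.11 ± 0.07 that did not pass (limma adjusted p = 0.362).

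**Figure D4:**
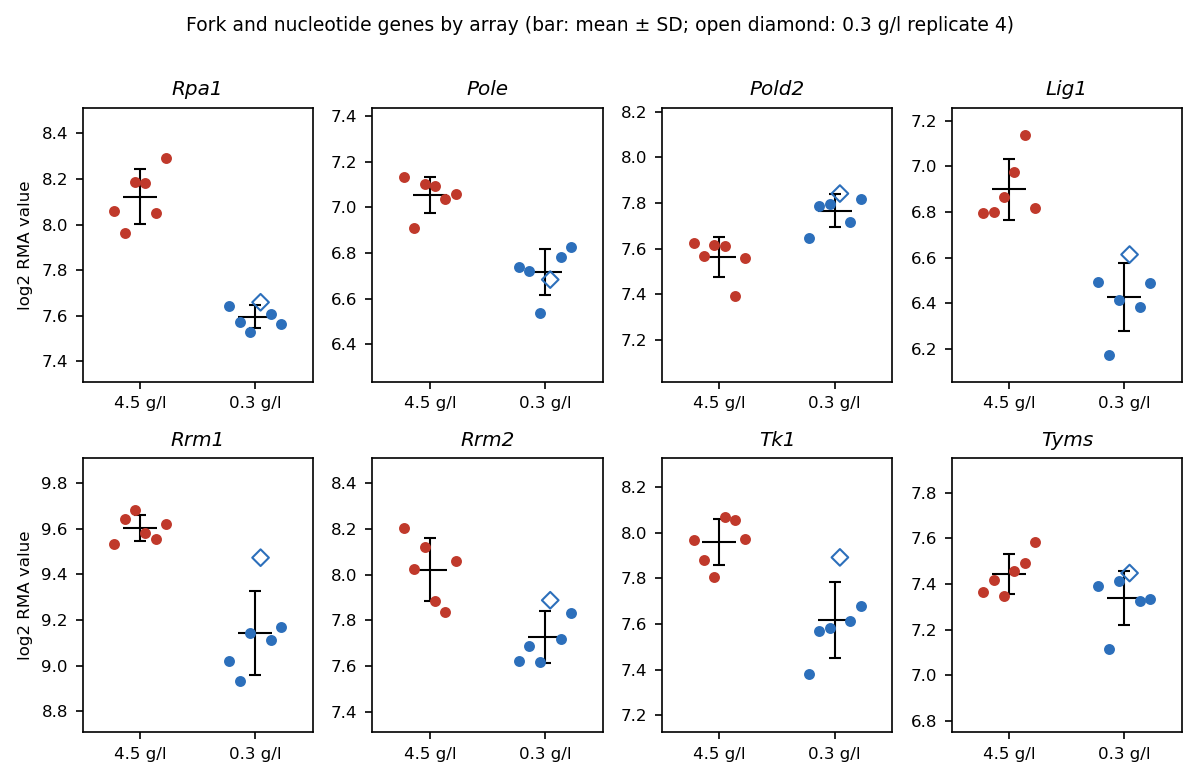
Log2 RMA value (y axis) of 4 fork genes and 4 nucleotide genes in each array of 4.5 g/l (left, red) and 0.3 g/l glucose (right, blue); bars are mean ± SD (n = 6 each), and the open diamond is 0.3 g/l replicate 4. Rpa1, Pole, Lig1 and Rrm1 are higher in 4.5 g/l without overlap, Pold2 is lower without overlap, and Tyms overlaps.

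Of the 3 genes that act on chromatin behind the fork, 2 rose. Uhrf1, which brings the maintenance DNA methyltransferase to hemimethylated DNA, had values of 6.98 to 7.19 (median 7.10) in 4.5 g/l, against 6.75 to 6.97 (median 6.83) in 0.3 g/l, a difference of 0.25 ± 0.06 (limma adjusted p = 0.014). Chaf1a, the large subunit of the histone chaperone CAF-1, had values of 6.13 to 6.32 (median 6.20) in 4.5 g/l, against 5.71 to 6.11 (median 5.87) in 0.3 g/l, a difference of 0.30 ± 0.08 (limma adjusted p = 0.021, and 0.0535 without 0.3 g/l replicate 1). Neither overlapped between groups. Its partner Chaf1b had a difference of 0.04 ± 0.07 (limma adjusted p = 0.802).

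Other genes of the replication pathway were read from 5 further lists. Beside their counts stand shares over all genes of 7.01% higher and 8.52% lower with 12 arrays. Without 0.3 g/l replicate 4 the shares were 10.3% and 13.6%. Of 22 measured fork and initiation factors, 6 rose, 1 fell and 15 did not pass, with a median log2 difference of 0.20. Without 0.3 g/l replicate 4, 9 were higher and 3 lower, with Ticrr, Dna2 and Top1 added to the higher and the polymerase epsilon subunits Pole3 (-0.30; limma adjusted p = 0.00358) and Pole4 to the lower ones. By the smallest p over 12 arrays, the first of those that rose were Exo1, a resection nuclease, at 1.46-fold (limma adjusted p = 0.000849), Clspn, a checkpoint mediator at the fork, at 1.31-fold, the repair polymerase Polq at 1.34-fold and the fork protection factor Donson at 1.29-fold. The one that fell, Recql4, named after its value was seen, was 1.19-fold lower (limma adjusted p = 0.0404) and lost the call when any 1 of 9 arrays was left out, with an adjusted p of 0.0569 to 0.0912; it kept it without 0.3 g/l replicate 4. Mms22l, among the 6 that rose and named after its value was seen, also lost the call without any 1 of 9 arrays (limma adjusted p = 0.0505 to 0.0973). It kept the call without 0.3 g/l replicate 4 (0.0378). Of 10 measured replicative chromatin genes, 4 rose and 6 did not pass. The histone chaperone Nasp was 1.26-fold higher, the histone-binding Rbbp7 1.27-fold, the maintenance methyltransferase Dnmt1 1.31-fold and the histone mRNA binding protein Slbp 1.18-fold. Slbp lost the call when any 1 of 10 arrays was left out, with an adjusted p of 0.0534 to 0.0784.

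Among 13 measured nucleotide enzymes outside the 52 genes, 2 rose, 5 fell and 6 did not pass, with a median log2 difference of 0.03. Of the 13 differences 7 were above 0 and 6 below. There were 3 higher and 5 lower without 0.3 g/l replicate 4, with the folate enzyme Mthfd1 added. Cad, which carries out the first steps of pyrimidine synthesis, was 1.45-fold lower in 4.5 g/l (limma adjusted p = 0.00349), the nucleoside diphosphate kinase Nme1 1.56-fold lower (0.00375) and Shmt1, also a folate enzyme, 1.36-fold lower (0.00701), while the salvage enzyme deoxycytidine kinase, Dck, was 1.25-fold higher (0.00574). Those outside the naming rule, given after their values were seen, were the deoxynucleotide hydrolase Samhd1, 1.33-fold higher, the mitochondrial thymidine kinase Tk2, 1.26-fold lower, and Rrm2b, 1.28-fold lower. Rrm2b is the small reductase subunit used outside S phase, and its log2 difference of -0.35 ± 0.09 (limma adjusted p = 0.0222) was opposite in sign to those of Rrm1 and Rrm2. Its adjusted p was 0.0502 to 0.0558 without any 1 of replicates 1, 3 and 5 of 0.3 g/l and replicate 4 of 4.5 g/l.

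Upstream control was mixed. Of 13 E2F and RB family genes 5 rose and 8 did not pass, with a median log2 difference of 0.14. Leaving out 0.3 g/l replicate 4 gave 6 higher, with E2f3 added, and 1 lower, E2f1. E2f5 was 1.28-fold higher (limma adjusted p = 0.00498), the dimer partner Tfdp2 1.19-fold, the pocket protein Rbl1 1.21-fold and the late S phase repressor E2f7 1.30-fold. E2f7 lost the call without any 1 of 5 arrays, with an adjusted p of 0.0533 to 0.0619. The related repressor E2f8, named after its value was seen, was 1.31-fold higher (limma adjusted p = 0.0381) and lost the call without any 1 of 8 arrays (0.0518 to 0.0896). E2f1, the classical activator of replication genes, also named afterwards, had values of 7.87 to 8.24 (median 8.03) in 4.5 g/l, against 8.08 to 8.38 (median 8.29) in 0.3 g/l. The groups overlapped, and the difference was -0.20 ± 0.08 (limma adjusted p = 0.098, and 0.0324 without 0.3 g/l replicate 4).

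Of 15 S phase kinases and checkpoint genes, 5 rose, 1 fell and 9 did not pass, with a median log2 difference of 0.01. Leaving out 0.3 g/l replicate 4 gave 5 higher and 3 lower, with the Cdk inhibitor Cdkn1b (limma adjusted p = 0.0173) and the checkpoint kinase Chek2 (0.0312) added to the lower ones, and the median was -0.01. Ccna2, the S phase cyclin, had values of 9.04 to 9.17 (median 9.13) in 4.5 g/l, against 8.37 to 9.00 (median 8.49) in 0.3 g/l. Replicate 4 of 0.3 g/l lay at 9.00, just under the 4.5 g/l arrays, and the others of its group reached 8.54; the difference was 0.55 ± 0.09 (limma adjusted p = 0.00141). Skp2, the ubiquitin ligase subunit that targets the Cdk inhibitor p27, was 1.36-fold higher, and the checkpoint kinase Wee1 1.28-fold higher. Chek1 and Cdk2, named after their values were seen, also rose, at 1.24- and 1.19-fold, and Cdk2 lost the call without any 1 of 3 arrays (limma adjusted p = 0.0502 to 0.0557). The gene that fell was Myc, a growth-promoting transcription factor. It had values of 7.49 to 7.75 (median 7.56) in 4.5 g/l, against 8.13 to 8.70 (median 8.52) in 0.3 g/l, a difference of -0.89 ± 0.09 (limma adjusted p = 4.91e-05), with no overlap between groups.

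**Figure D5:**
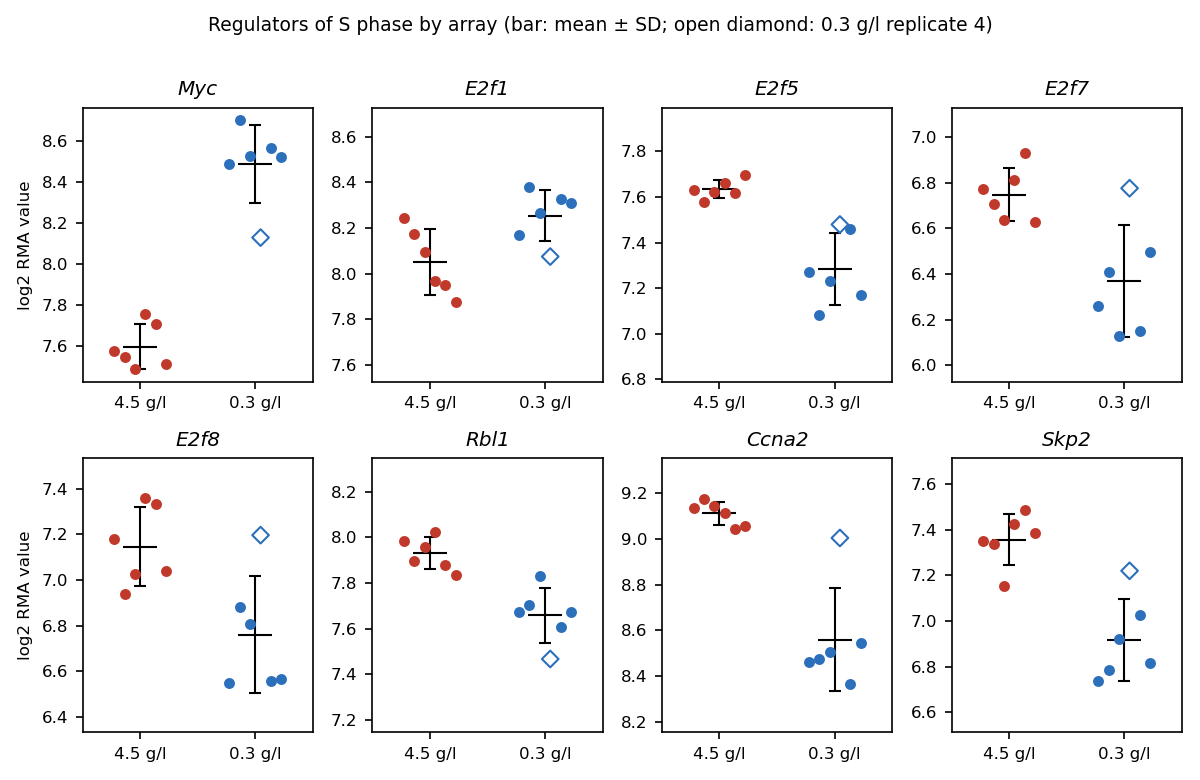
Log2 RMA value (y axis) of 8 regulators of S phase in each array of 4.5 g/l (left, red) and 0.3 g/l glucose (right, blue); bars are mean ± SD (n = 6 each), and the open diamond is 0.3 g/l replicate 4. Myc is lower in 4.5 g/l in every array, E2f1 overlaps, and in Ccna2, E2f7 and E2f8 the diamond lies above the other 0.3 g/l arrays.

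Within replicates 1 to 3, 11 of the 50 replication genes were higher in 4.5 g/l and 1 was lower at an adjusted p under 0.05 in limma, against 5.92% and 7.16% of all genes in the same fit. Within replicates 4 to 6 none passed in either direction, and 30 genes were called in the whole table. Without 0.3 g/l replicate 4, 12 were higher and 2 lower in this range, against 6.55% and 8.94% of all genes. Single log2 differences moved with the range in both directions, in genes picked after their values were seen. That of Prim1 was 0.18 in replicates 1 to 3 and 0.43 in replicates 4 to 6 without 0.3 g/l replicate 4. For Rrm2 the values were 0.48 and 0.15, and for Chaf1a 0.40 and 0.10.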

How the data were processed

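RNA of 12 samples was measured on Affymetrix arrays, 6 a group. The deposited values are on a log2 scale, made by the authors with RMA in Affymetrix Expression Console, per the submitters' processing notes; the version and genome build are not given in the sources used here. RMA summarises probes and normalizes across arrays, so an equal shift of all genes is not visible. Precision is limited by the number of arrays, with a median standard error over all genes of 0.0931.

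Of 41345 probe sets, 23521 carried 1 symbol in the platform annotation, 1814 several and 16010 none. The probe set with 1 symbol and the highest mean stood for each of 22180 genes, with no filter on low values; none of the 50 measured replication genes fell in the lowest 25% by mean. Rpa1, Pole, Rrm2, Fen1 and Rpa3 had more than 1 such probe set. Groups were compared with limma 3.58.1 in R 4.3.3 (lmFit and eBayes, no covariate, Benjamini-Hochberg adjustment, threshold 0.05), tested on simulated data first. Alternatives covered normalization, filter, weights, blocks, a rank-sum test, a minimum fold and single arrays left out.

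The genes and lists were chosen with earlier results of these data known. All 52 are named; values are given for the 3 called genes of smallest p in each functional group, for called genes lower in 4.5 g/l, and for Pcna, Mcm2, Cdc6, Cdt1, Ccne1, Rrm2 and Uhrf1; Orc2 and Pole2, and all gene pairs, were added after their values were seen. From each further list the 4 called genes of smallest p are named, and others are marked or named for a call gained without 0.3 g/l replicate 4, after their values were seen.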

Additional observations from a re-analysis of the deposited data

Results flagged for a closer look

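For each of the 50 genes, the highest and lowest array of each group was compared with its neighbours by Dixon's criterion (0.625 for 6 samples). Of 100 groups 14 had such an array, and chance gives about 1 in 20. Replicate 4 of 0.3 g/l accounted for 5 of the 14. It lay below the rest of its group for Orc2 (7.27), Orc5 (7.24), Mcm2 (8.28) and Rnaseh2a (7.17), and above it for Mcm4 (8.40). Other arrays of 0.3 g/l stood apart less often: replicate 6 was low for Orc1 (4.79), replicate 5 was high for Mcm7 (7.75), and replicate 2 was low for Rpa2 (6.62) and Tyms (7.12). In 4.5 g/l, replicate 5 was low for Orc2 (7.33), Pold2 (7.39) and Rfc2 (6.84), replicate 1 was low for Mcm2 (8.20), and replicate 6 was low for Pold1 (6.51). All values are log2.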

How the results depend on the processing

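With 12 arrays 19 replication genes were higher, 2 lower, and the median log2 difference was 0.14. Leaving out 1 array gave 16 to 22 higher, 1 to 4 lower and medians of 0.14 to 0.16; 16 of the 21 called genes stayed called without any 1 array. The count of higher genes was 3 in a test against a fold of 1.2 (Mcm4, Mcm6 and Rpa1) and 11 in replicates 1 to 3. It was 0 in replicates 4 to 6 (6 samples, 30 genes called in the whole table) and 12 there without 0.3 g/l replicate 4. The count of lower genes was 1 with quantile normalization, cyclic loess, the rank-sum test and replicates 1 to 3, 4 with array weights, and 0 with the fold of 1.2 and in replicates 4 to 6. Median centring moved the median of all genes to -0.05 and that of the replication genes to 0.10, with 14 higher and 2 lower; Cdc6, Mcm7, Mcm10, Prim1 and Chaf1a lost the call. The exact rank-sum test gave 16 higher and lost Dbf4, Pola1, Prim1, Rrm2 and Tk1. Quantile normalization and cyclic loess lost Pold2. Averaging the probe sets of a gene lost Pole and Rrm2. Mcm3, Mcm4, Mcm5, Mcm6, Rpa1, Lig1 and Rrm1 stayed called in all alternatives but the fold of 1.2 and replicates 4 to 6 alone.

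The deviations of same-numbered arrays from their group means correlated at -0.05 to 0.17. The labels do not say whether a shared number marks a shared culture or animal. These correlations cannot decide it, because single arrays and the number ranges also shape the deviations. With the replicate number as a block, 16 genes were higher and 1 lower, and Cdc6, Mcm10, Pold2 and Rrm2 lost the call. With the number range (1 to 3, 4 to 6) as a block, 20 were higher and 2 lower. Rbbp4, a histone chaperone subunit outside the 52 genes, had a difference of -0.04 in the probe set used and 1.01 in its other one, and their average gave 0.48; which of them measures the gene was not tested. Few differences here exceed 0.5, and the number of arrays limits what can be told apart. The causes of the moved calls were not tested.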
